A study of Homo sapiens with 12 samples.

Results

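The phagocyte NADPH oxidase is the enzyme complex with which neutrophils and macrophages produce superoxide. Its expression was examined in HL60 cells through 7 genes taken by name (CYBB, CYBA, NCF1, NCF4, RAC2, RAC1 and HVCN1) from the 59251 genes of the deposited RNA-seq count table. Other subunits of the complex were not analysed here. All 7 genes passed the filter on low counts that left 13318 genes for testing.

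In a resting phagocyte the catalytic subunit NOX2, encoded by CYBB, sits in the membrane with the partner protein encoded by CYBA, and the pair is called flavocytochrome b. On stimulation the cytosolic subunits, among them the organizer encoded by NCF1 and the phosphoinositide-binding subunit encoded by NCF4, join it together with a GTP-loaded Rac protein, and the assembled enzyme passes electrons from NADPH to oxygen. The voltage-gated proton channel encoded by HVCN1 is not a subunit but offsets the charge that this electron flow carries across the membrane. The complex is a late product of granulocyte maturation, and its inherited loss causes chronic granulomatous disease.

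HL60 is an established human acute myeloid leukemia cell line that matures toward granulocytes under all-trans retinoic acid (ATRA), the ligand of retinoic acid receptors. Cells were left without drug (non-treated), or received ATRA at 1 µM, palbociclib, an inhibitor of the cell cycle kinases CDK4 and CDK6 (CDK4/6i), at 1 µM, or the pair at these doses (CDK4/6i+ATRA), for 48 h. Each of the 4 groups had 3 libraries, and the total counts ran from 12230923 to 18679544 per library. The design asks how each drug, and the pair of drugs, changed expression at 1 time point. The labels call the libraries biological replicates without saying how the cultures were separated, so the p-values measure the spread between these samples. Levels are given as CPM, the count scaled to library size after TMM scaling, with mean ± SD over n = 3 libraries. Levels of different genes are compared as RPKM (CPM divided by exon length in kilobases), apart from ranks and shares by count and the leading gene of a marker list.

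The HL60 label was checked against 7 promyelocytic markers, of which 4 had counts in every library. The most abundant of them, the myeloperoxidase gene MPO, stood at 6517 ± 168 CPM in non-treated cells, 293 ± 27.4 CPM under ATRA, 3469 ± 66.4 CPM under CDK4/6i and 28.0 ± 5.15 CPM under CDK4/6i+ATRA (SD, n = 3). From non-treated cells to CDK4/6i, CTSG also fell, from 13.96 ± 2.42 to 3.26 ± 0.40 CPM. MYB rose from 340.6 ± 5.72 to 370.3 ± 6.43 CPM and CD33 from 93.9 ± 2.50 to 118.5 ± 3.425 CPM. Under CDK4/6i+ATRA CD33 stood at 99.8 ± 5.24 CPM. Of the 4 detected markers, 4 were lower under ATRA, 2 were higher and 2 lower under CDK4/6i, and 3 were lower under CDK4/6i+ATRA while 1 did not pass the test (it was higher with DESeq2 size factors and lower with scaling by library size alone), each against non-treated cells. Of all 13318 tested genes 32.1% were higher and 35.5% lower under ATRA, 28.3% and 27.9% under CDK4/6i, and 41% and 40.7% under CDK4/6i+ATRA. The remaining 3 markers, ELANE, PRTN3 and AZU1, stood at 0 in every library. The table places these 3 genes both on chromosome 19 and on an alternative contig of it.

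Reads from sequence that recurs in the genome bear on several of the oxidase genes. Of 46 genes that the table lists on both chromosome X and chromosome Y, 45 (97.8%) had no count in any library. The share without counts was 65.9% of 4379 genes listed on a chromosome and another contig, as NCF4 is. It was 51.5% of 54783 genes listed at 1 sequence alone. Windows of 50 bases taken along the exons were searched for at other places in hg38. For NCF1, 84.7% of 810 windows recurred, all on chromosome 7, where the near-identical genes NCF1B and NCF1C lie. For NCF4, 86.3% of 2632 windows recurred, on an alternative contig of chromosome 22 on which the table also lists this gene. The share was 21.5% for RAC1 and 6.38% for CYBA, while no window of CYBB, RAC2 or HVCN1 recurred. The levels of NCF1 and NCF4 are therefore uncertain, and the changes of NCF1 have the same limit, since its share among its copies, given below, differed between groups.

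CYBB (chrX:37780059-37813461, plus strand, hg38) changed from a gene with a moderate count to one of those with the highest counts. Its level was 130.5, 129 and 135 CPM in the non-treated libraries and 2099, 2037 and 2101 CPM in the ATRA libraries. It was 454, 435.5 and 456 CPM under CDK4/6i and 2959, 2978 and 3113 CPM under CDK4/6i+ATRA. The groups did not overlap, and their order was non-treated, CDK4/6i, ATRA and CDK4/6i+ATRA, with gaps between neighbouring groups far wider than the spread within them. By count, without division by length, CYBB ranked between 1476 and 1610 among all genes in the non-treated libraries and between 275 and 289 under CDK4/6i. Its rank was between 28 and 30 under ATRA and between 34 and 40 under CDK4/6i+ATRA. In these bulk samples a larger share of expressing cells and more RNA per cell cannot be told apart.

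ATRA raised CYBB 15.8-fold (log2 fold change 3.98, SE 0.047, adjusted p = 5.1e-50, edgeR's quasi-likelihood test, Benjamini-Hochberg adjusted). CDK4/6i alone raised it 3.41-fold (log2 1.77, SE 0.045), and CDK4/6i+ATRA raised it 22.9-fold (log2 4.52, SE 0.048), all against non-treated cells. The step from ATRA to CDK4/6i+ATRA was 1.45-fold (log2 0.54, SE 0.041, edgeR adjusted p = 1.2e-16). These comparisons draw on the same 12 libraries and share their reference groups, so they are given side by side and are not independent of each other.

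CYBA (chr16:88643289-88651053, minus strand), whose product stabilizes NOX2 and anchors the organizer subunit, moved less. Non-treated libraries held 169.5, 169 and 163 CPM, and ATRA libraries held 287, 289.6 and 300.0 CPM. CDK4/6i libraries held 215.0, 219.7 and 220.1 CPM, and CDK4/6i+ATRA libraries held 521, 533 and 571 CPM. All 4 groups were separate, in the same order as for CYBB. The fold changes against non-treated cells were 1.75 under ATRA, 1.31 under CDK4/6i and 3.24 under CDK4/6i+ATRA. The step from ATRA to CDK4/6i+ATRA was 1.85-fold (log2 0.89, SE 0.037, edgeR adjusted p = 1.0e-26), larger than the corresponding step of CYBB in size. Between these groups the ratio of CYBB to CYBA, given below, changed by -0.35 on the log2 scale. Its two-sided exact permutation p was 0.1, the smallest that 3 against 3 libraries allow.

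The 300 bases around the gene start (250 before it, 50 after) were searched on both strands for sequence motifs of factors known to act on myeloid or retinoid-responsive genes. RefSeq promoter sequences on GRCh38.p14 were at hand for 3 of the 7 genes, and these 3 are shown for that reason alone. Capitals mark every match to the motifs named next.
CYBB, chrX:37779809-37780108, plus strand: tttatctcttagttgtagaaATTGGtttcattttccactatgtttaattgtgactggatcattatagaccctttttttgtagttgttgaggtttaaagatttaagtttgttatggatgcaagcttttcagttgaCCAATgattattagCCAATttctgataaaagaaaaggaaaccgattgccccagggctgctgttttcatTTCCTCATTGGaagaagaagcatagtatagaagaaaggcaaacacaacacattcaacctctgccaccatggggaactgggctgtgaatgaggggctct
NCF1, chr7:74773761-74774060, plus strand: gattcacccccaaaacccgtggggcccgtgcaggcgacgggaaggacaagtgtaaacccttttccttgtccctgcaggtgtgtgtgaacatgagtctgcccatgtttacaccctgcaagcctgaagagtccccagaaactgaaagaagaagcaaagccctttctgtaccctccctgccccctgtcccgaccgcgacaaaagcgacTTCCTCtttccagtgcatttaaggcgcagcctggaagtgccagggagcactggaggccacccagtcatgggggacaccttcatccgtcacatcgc
CYBA, chr16:88651004-88651303, minus strand: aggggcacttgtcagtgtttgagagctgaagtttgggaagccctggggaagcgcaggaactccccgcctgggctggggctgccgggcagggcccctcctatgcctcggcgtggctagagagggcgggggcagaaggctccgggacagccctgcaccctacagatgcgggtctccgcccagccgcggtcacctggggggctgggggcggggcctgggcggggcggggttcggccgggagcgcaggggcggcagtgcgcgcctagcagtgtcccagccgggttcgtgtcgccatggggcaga

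The ETS core GAGGAA, which PU.1 binds among other factors, occurred once on the reverse strand in CYBB, 48 bases before the gene start, and once on the reverse strand in NCF1, 45 bases before it. It occurs in 27.9% of the 35116 promoters of this length. The CCAAT box had 4 matches in CYBB and none in NCF1, against 34.6% of promoters with at least 1. In CYBB the ETS match adjoined a CCAAT match, and no matches overlapped. The letters TATAAA (11.5% of promoters), AGGTCA (13.8%, a unit bound by retinoic acid receptors), TTCNNNGAA (7.66%) and TTTCCCGC (1.63%) were in none of the 3 windows, and the CYBA window, with 72.7% G and C, held no match to any of the 6 motifs. Windows of this size say nothing of elements farther away, and a match is a description of letters, not of binding.

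NCF1 (chr7:74774011-74789315, plus strand), the organizer that links the cytosolic subunits to the membrane, had the largest fold change of the 7 genes under ATRA. The non-treated libraries held 43.1, 38.1 and 41.9 CPM, and the ATRA libraries held 1768, 1729 and 1716 CPM. With CDK4/6i the values were 106, 104 and 116 CPM, and under CDK4/6i+ATRA they were 1611, 1556 and 1620.0 CPM. The 2 groups under ATRA stood far above the 2 without it, and each CDK4/6i+ATRA library was below each ATRA library. ATRA raised NCF1 42.3-fold (log2 5.40, SE 0.053, edgeR adjusted p = 2.9e-53) and CDK4/6i raised it 2.64-fold (log2 1.40, SE 0.053), while CDK4/6i+ATRA gave 38.9-fold (log2 5.28, SE 0.053).

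From ATRA to CDK4/6i+ATRA the NCF1 value changed by -0.12 on the log2 scale (SE 0.041, edgeR adjusted p = 0.0071). This small decrease reversed to 0.033 (edgeR adjusted p = 0.50) when the counts of NCF1, NCF1B and NCF1C were summed into 1 gene, so no direction is read from it. With the summed counts the ATRA, CDK4/6i and CDK4/6i+ATRA changes against non-treated cells were 5.73, 1.497 and 5.77 on the log2 scale.

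NCF1B (chr7:73220639-73235945) and NCF1C (chr7:75156578-75171998) are regarded as pseudogenes of NCF1, and reads can be assigned to either or to NCF1 itself. NCF1B went from 7.06 ± 0.55 CPM in non-treated cells to 392 ± 14.2 CPM under ATRA, and NCF1C from 18.2 ± 0.82 to 1397 ± 33.8 CPM (SD, n = 3). With CDK4/6i+ATRA they reached 482.5 ± 6.52 and 1530.0 ± 28.3 CPM. NCF1 took 61.7%, 60.6% and 63.4% of the summed counts of the 3 genes in the non-treated libraries, which rest on 1163, 1002 and 1174 counts. Its share was 49.0%, 49.4% and 49.5% under ATRA, 57.6%, 57.3% and 58.9% under CDK4/6i, and 44.4%, 44.1% and 44.2% under CDK4/6i+ATRA. The share was thus lower in every library under ATRA than in every library without it. The Wilson 95% intervals of the non-treated shares reached from 57.5% to 66.1% and those of the ATRA shares from 48.6% to 49.9%. Intervals and floors here cover counting error alone, because the reads carry no molecular identifiers and copies of 1 molecule are counted apart. Whether the share reflects the transcripts or the assignment of reads was not tested.

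**Figure D1:**
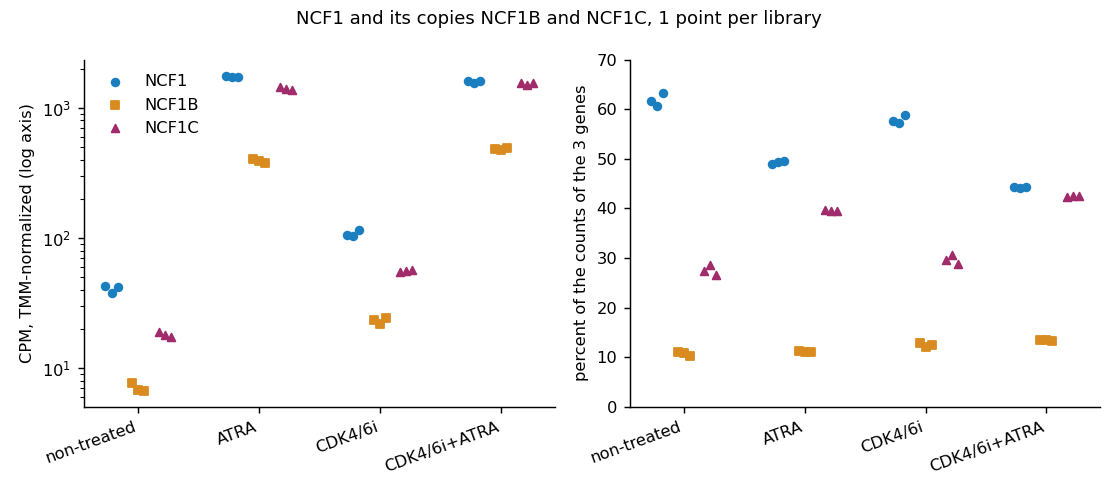
Left, CPM (log axis) of NCF1, NCF1B and NCF1C in each of the 12 libraries; right, the percentage of the summed counts of the 3 genes that each took, with 1 point per library. All 3 genes stood higher in the libraries that received ATRA, alone or with CDK4/6i, than in the others, and the NCF1 share was between 60.6% and 63.4% in non-treated libraries and between 44.1% and 44.4% under CDK4/6i+ATRA.

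NCF4 (chr22:36861006-36878015, plus strand), which binds phosphatidylinositol 3-phosphate on phagosomes, changed within a narrow range. Its values were 28.7, 30.0 and 32.6 CPM in non-treated libraries and 59.3, 57.3 and 60.4 CPM under ATRA. They were 45.8, 46.0 and 46.8 CPM under CDK4/6i and 63.8, 62.6 and 62.6 CPM under CDK4/6i+ATRA. The groups did not overlap, but those under ATRA and under CDK4/6i+ATRA lay close together. The fold changes against non-treated cells were 1.94 under ATRA, 1.52 under CDK4/6i and 2.07 under CDK4/6i+ATRA. The value under CDK4/6i+ATRA was 0.093 above that under ATRA on the log2 scale (SE 0.055, edgeR adjusted p = 0.13), which did not pass the test, and its sign turned with scaling by library size alone, where it passed as a decrease (-0.21, edgeR adjusted p = 0.0013), and without the filter on low counts (-0.0005122). The antisense gene NCF4-AS1 shares 29 exonic bases with NCF4 and had 36 counts in all libraries together, against 9163 for NCF4; the sources used here do not state whether counting used strand.

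The Rac GTPase of the oxidase in neutrophils is mainly RAC2, a hematopoietic protein, and RAC1 is its widely expressed relative. RAC2 (chr22:37225270-37244269, minus strand) stood at 287.5, 288 and 283 CPM in non-treated libraries and at 571, 542 and 565.0 CPM under ATRA. It stood at 495, 494 and 487 CPM under CDK4/6i and at 932, 977 and 1008 CPM under CDK4/6i+ATRA. Every group was separate from the others, with CDK4/6i close below ATRA. Against non-treated cells RAC2 rose 1.96-fold under ATRA (log2 0.97, SE 0.039), 1.72-fold under CDK4/6i (log2 0.78, SE 0.039) and 3.40-fold under CDK4/6i+ATRA (log2 1.76, SE 0.040).

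RAC1 (chr7:6374527-6403967, plus strand) was the only one of the 7 genes to fall under a single drug. Its levels were 198, 199 and 185 CPM in non-treated libraries and 229, 231 and 232.5 CPM under ATRA. They were 137, 136 and 126 CPM under CDK4/6i and 210.4, 223 and 224 CPM under CDK4/6i+ATRA. The CDK4/6i libraries were the lowest of all, and the ATRA libraries were the highest. CDK4/6i changed RAC1 by -0.55 on the log2 scale (SE 0.040, edgeR adjusted p = 1.1e-16), while ATRA raised it by 0.25 (SE 0.039). The rise of 0.17 under CDK4/6i+ATRA (SE 0.040, edgeR adjusted p = 0.00010) turned to -0.091 (edgeR adjusted p = 0.022) with scaling by library size alone, and without the filter on low counts it was 0.065 and did not pass (edgeR adjusted p = 0.30). Between CDK4/6i+ATRA and ATRA the difference of -0.074 (SE 0.039, edgeR adjusted p = 0.090) did not pass the test. It did pass with DESeq2 size factors (-0.089, edgeR adjusted p = 0.048), with library size alone (-0.38, edgeR adjusted p = 9.7e-12), without the filter on low counts (-0.17, edgeR adjusted p = 0.0011) and in a fit of these 2 groups alone (-0.14, edgeR adjusted p = 0.0014), so the call depends on these settings.

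The ratio of RAC2 to RAC1, computed from levels per length, does not depend on the scaling of the libraries. It was 2.05, 2.04 and 2.16 in non-treated libraries, 3.52, 3.32 and 3.43 under ATRA, 5.10, 5.14 and 5.45 under CDK4/6i and 6.25, 6.18 and 6.35 under CDK4/6i+ATRA. No groups overlapped, and each drug moved the balance toward RAC2, CDK4/6i more than ATRA. The log2 ratio was 0.72 above non-treated under ATRA, 1.33 under CDK4/6i and 1.59 under CDK4/6i+ATRA, each with p = 0.1 in a two-sided exact permutation test, the smallest p that 3 against 3 libraries allow. Part of the RAC1 windows recur elsewhere in the genome, so the size of the ratio is uncertain.

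The balance within flavocytochrome b also shifted. CYBB to CYBA, per length, was 0.455 ± 0.019 in non-treated cells, 4.11 ± 0.096 under ATRA, 1.19 ± 0.038 under CDK4/6i and 3.22 ± 0.065 under CDK4/6i+ATRA (SD, n = 3). By these levels CYBA was the higher of the pair in non-treated cells and the lower in each of the other groups. The lengths used were all exonic bases listed, 4409 for CYBB and 2550 for CYBA, and the transcripts in use were not determined. Which gene of the pair is higher depends on these lengths, whereas at fixed lengths the shift between groups does not. CYBB to NCF1 was 0.98 ± 0.056 in non-treated cells, 0.37 ± 0.0076 under ATRA, 1.27 ± 0.053 under CDK4/6i and 0.58 ± 0.014 under CDK4/6i+ATRA, with the limit on NCF1 levels given above. The exact two-sided permutation p was 0.1 for every pair of groups in both ratios.

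**Figure D2:**
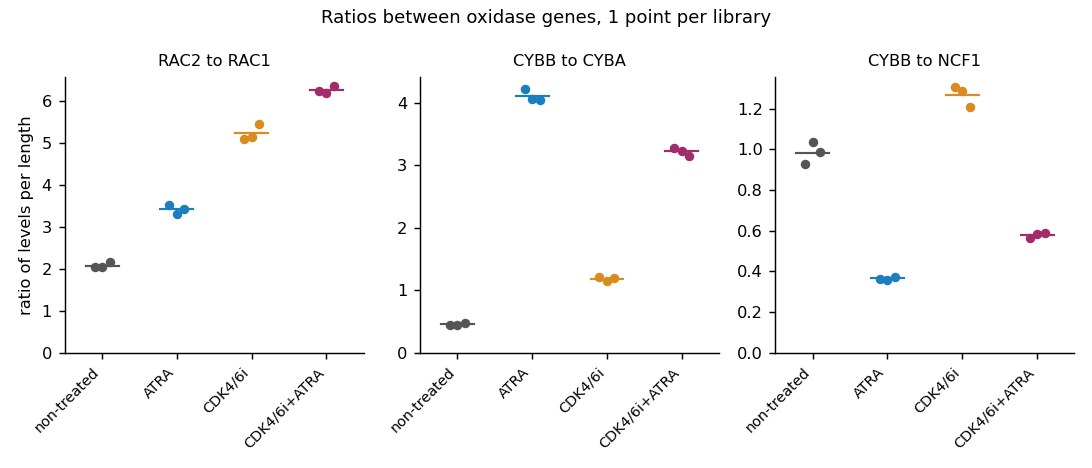
Ratios of levels per length (vertical axis, from 0) in the 12 libraries, with 1 point per library and a line at the group mean. RAC2 to RAC1 went from 2.08 in non-treated cells to 6.26 under CDK4/6i+ATRA, and CYBB to CYBA was highest under ATRA, at 4.11.

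HVCN1 (chr12:110648686-110704952, minus strand), the proton channel, was the only one of the 7 genes for which CDK4/6i alone gave a higher level than ATRA alone, a difference that was not tested. Non-treated libraries held 18.3, 18.3 and 15.5 CPM, and ATRA libraries held 28.9, 29.6 and 26.4 CPM. CDK4/6i libraries held 33.4, 34.4 and 33.9 CPM, and CDK4/6i+ATRA libraries held 44.0, 48.2 and 37.9 CPM. The groups were separate, although the 3 libraries with both drugs spread more widely than those of the other groups. HVCN1 rose 1.63-fold under ATRA (log2 0.71, SE 0.082), 1.95-fold under CDK4/6i (log2 0.97, SE 0.080) and 2.50-fold under CDK4/6i+ATRA (log2 1.32, SE 0.082). The rise of 0.35 on the log2 scale from CDK4/6i to CDK4/6i+ATRA (SE 0.074, edgeR adjusted p = 3.4e-05) shrank to 0.076 and no longer passed (edgeR adjusted p = 0.38) with scaling by library size alone. TCTN1 on the opposite strand shares 388 exonic bases with HVCN1 and had 192 counts in total, against 5592 for HVCN1.

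**Figure D3:**
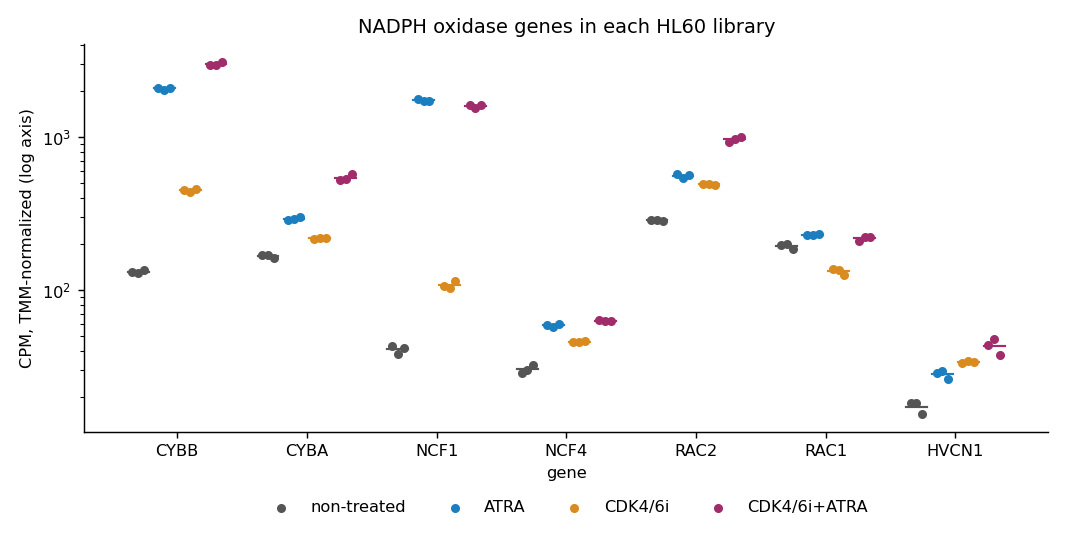
CPM (log axis) of the 7 genes in each of the 12 libraries, with 1 point per library, colors for the groups and a line at each group mean. CYBB and NCF1 spanned the widest range, RAC1 the narrowest, and levels can be compared between groups of 1 gene but not between genes, since CPM is not divided by length.

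Per length, the order of the genes changed between groups. In non-treated cells RAC2 was the highest at 171 ± 1.46 RPKM, followed by RAC1 at 82.1 ± 3.30, CYBA at 65.5 ± 1.34, NCF1 at 30.4 ± 1.95, CYBB at 29.8 ± 0.68, NCF4 at 9.45 ± 0.62 and HVCN1 at 5.95 ± 0.54 RPKM (SD, n = 3). NCF1 and CYBB were within each other's spread there. With CDK4/6i+ATRA the order was NCF1 at 1183 ± 25.6, CYBB at 684 ± 18.98, RAC2 at 580.0 ± 22.5, CYBA at 212 ± 10.1, RAC1 at 92.6 ± 3.14, NCF4 at 19.6 ± 0.22 and HVCN1 at 14.9 ± 1.79 RPKM. By these levels CYBB had passed RAC1, CYBA and RAC2. The order between genes depends on the exonic lengths used. The NCF4 level takes the 3220 exonic bases on chromosome 22 as its length. Together the 7 genes made up between 0.0897% and 0.0903% of all counts in non-treated libraries, between 0.525% and 0.537% under ATRA, between 0.153% and 0.157% under CDK4/6i and between 0.546% and 0.566% under CDK4/6i+ATRA.

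Counted over the 7 genes, ATRA against non-treated gave 7 higher at an adjusted p under 0.05, where 32.1% of all tested genes were higher and 35.5% lower. CDK4/6i gave 6 higher and 1 lower (RAC1), where 28.3% of all tested genes were higher and 27.9% lower. CDK4/6i+ATRA gave 7 higher, where 41% were higher and 40.7% lower. The median log2 fold change of the 7 genes was 0.95, 0.78 and 1.70 in these comparisons, while that of all tested genes was -0.028, 0.020 and 0.018.

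Against ATRA alone, CDK4/6i+ATRA gave 4 higher (CYBB, CYBA, RAC2 and HVCN1), 1 lower (NCF1, with the reversal noted above) and 2 that did not pass (NCF4 and RAC1), where 36.9% of all tested genes were higher and 32.8% lower. Against CDK4/6i alone it gave 7 higher, where 39.1% were higher and 39.5% lower. The median log2 change of the 7 genes was 0.54 and 0.98 in these comparisons, against 0.044 and 0.0014 for all tested genes. Scaling matters here. The libraries with both drugs had TMM factors between 0.840 and 0.893, against 1.025 to 1.07 in the others, and scaling by library size alone put the median of all genes at -0.25 against non-treated, -0.26 against ATRA and -0.28 against CDK4/6i. With that scaling 32.9% of tested genes were higher and 48.3% lower under CDK4/6i+ATRA against non-treated, 22.2% and 48.1% against ATRA, and 28.6% and 49.2% against CDK4/6i. The 7 genes then gave 6 higher and 1 lower (RAC1) against non-treated, 4 higher and 3 lower (NCF1, NCF4 and RAC1) against ATRA, and 6 higher against CDK4/6i, where HVCN1 did not pass. Without the filter on low counts they gave 6 higher against non-treated, where 19.8% of 28097 genes were higher and 21.4% lower, and 4 higher and 2 lower against ATRA, where 15.2% were higher and 17.6% lower.

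Whether the fold effects of the 2 drugs multiplied was tested for each gene with an interaction term. It is the log2 effect of ATRA in the presence of CDK4/6i minus its effect alone. Here 2 of the 7 genes were above 0 and 4 below it, where 24.5% of all tested genes were higher and 27% lower, or 10.3% and 45.5% with scaling by library size alone, under which RAC2 joined the 4 below 0. CYBB had -1.23 (SE 0.060, edgeR adjusted p = 3.5e-23), and NCF1 had -1.53 (SE 0.068, edgeR adjusted p = 8.9e-25). For these 2 genes ATRA thus multiplied a level already raised by CDK4/6i by less than it multiplied the non-treated level. In CPM the CYBB mean went from 131.5 to 2079 under ATRA alone, and from 448 to 3017 when ATRA joined CDK4/6i. The term thus speaks of fold changes and not of added CPM. NCF4 had -0.51 (SE 0.080) and HVCN1 had -0.35 (SE 0.11, edgeR adjusted p = 0.0065). CYBA had 0.50 (SE 0.054, edgeR adjusted p = 2.6e-11) and RAC1 had 0.47 (SE 0.056), so the 2 drugs together gave more than the product of their separate effects. With scaling by library size alone, the interaction term was smaller for CYBA, at 0.19 (edgeR adjusted p = 0.00098), and for RAC1, at 0.15 (edgeR adjusted p = 0.011), and farther below 0 for NCF4, at -0.83, and HVCN1, at -0.67. RAC2 had 0.015 with a 95% interval from -0.091 to 0.12 (edgeR adjusted p = 0.84), and its sign depended on the scaling, with -0.30 (edgeR adjusted p = 2.2e-07) by library size alone. The membrane pair CYBB and CYBA was therefore split in sign by this term.

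**Figure D4:**
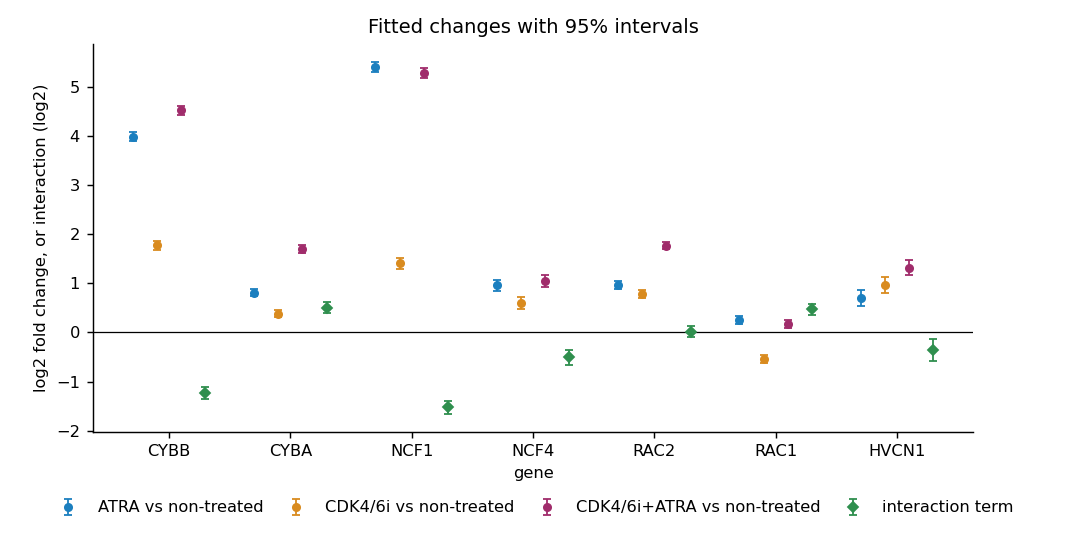
Fitted log2 fold changes against non-treated cells and the interaction term for the 7 genes, with 95% intervals of 1.96 standard errors. CYBB and NCF1 changed most and had negative interaction terms of -1.23 and -1.53, CYBA and RAC1 had positive ones, and that of RAC2 included 0; under scaling by library size alone the RAC2 term was -0.30 and the CDK4/6i+ATRA change of RAC1 was -0.091.

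The genes most like each of the 7 across the 12 libraries were sought among 9293 genes with a mean of at least 5 CPM, by Pearson's r of log2 CPM. These r values are descriptions, since the libraries fall into 4 treatment groups. PADI4 and AKNA were among the genes nearest to CYBB. CYBA was nearest to DYNLT3 (r = 0.998), SERINC1 and RIT1. NCF1 was nearest to its copy NCF1C, then TRAF3IP3 and VSIR. NCF4 was nearest to CSF3R, the receptor of the granulocyte growth factor (r = 0.992, 38.9 ± 2.14 CPM in non-treated cells and 116 ± 10.1 under CDK4/6i+ATRA), SUCNR1 and GPR132. RAC2 was nearest to NBR1, TYROBP and EVI2B, RAC1 to TMEM11, SAR1A and DESI2, and HVCN1 to CNR2 (r = 0.977), TRAPPC11 and NMNAT1.

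Genes around the oxidase were counted in lists. Of 13 other NADPH oxidase genes and partners, 5 were tested, and 3 were higher and 1 lower under CDK4/6i+ATRA against non-treated cells, where 41% of all tested genes were higher and 40.7% lower. NOXA1, 1 of the 3 higher genes, had 3, 0 and 1 counts in non-treated libraries and 17, 13 and 11 under CDK4/6i+ATRA. It passed the filter on low counts only through that group, so no weight is put on its call. NOX3, NOX4, NOXO1, DUOXA1 and DUOXA2 had no count in any library (NOXO1 is listed on another contig too), where 3 counts would have been 0.161 to 0.245 CPM. RAC3, the third Rac gene, fell from 71.2 ± 0.96 CPM to 11.1 ± 0.58 under ATRA and 3.35 ± 0.39 under CDK4/6i+ATRA (SD, n = 3), and it was 49.6 ± 3.00 under CDK4/6i. CYBC1, a chaperone that NOX2 protein needs for its maturation, rose from 48.7 ± 1.91 to 82.3 ± 5.24 CPM under CDK4/6i+ATRA. CDC42 rose from 340 ± 13.4 to 536 ± 27.7 CPM.

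Of 25 genes for priming of the oxidase and control of Rac, 23 were tested. With ATRA 14 were higher and 4 lower, under CDK4/6i 11 and 6, and under CDK4/6i+ATRA 15 and 8 (13 and 8 with scaling by library size alone), each against non-treated cells. Among all tested genes 32.1% were higher and 35.5% lower under ATRA, 28.3% and 27.9% under CDK4/6i, and 41% and 40.7% under CDK4/6i+ATRA. S100A8 and S100A9, whose proteins carry arachidonic acid to the oxidase, rose most. S100A8 was at 6.96 ± 0.22 CPM in non-treated cells, 479.5 ± 20.6 under ATRA, 48.3 ± 1.55 under CDK4/6i and 1845 ± 78.6 under CDK4/6i+ATRA (SD, n = 3). S100A9 went from 39.3 ± 5.18 CPM to 5070.0 ± 187 under CDK4/6i+ATRA. PIK3CG, the catalytic subunit of the G protein-coupled phosphoinositide kinase, went from 121 ± 4.35 to 1634 ± 45.2 CPM, and its regulatory subunit gene PIK3R5 from 17.0 ± 1.19 to 141 ± 3.91 CPM.

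Of 12 transcription factors known to act on oxidase promoters, 9 were tested, and 9 were higher under CDK4/6i+ATRA (8, with ELF1 lower, under scaling by library size alone), 6 under ATRA and 4 under CDK4/6i, while ELF1 was lower under ATRA. The shares of higher genes among all tested were 41%, 32.1% and 28.3% in these comparisons. SPI1, which encodes PU.1, stood at 302 ± 3.03 CPM in non-treated cells, 463 ± 12.2 under ATRA, 362 ± 3.81 under CDK4/6i and 855 ± 15.5 under CDK4/6i+ATRA (SD, n = 3). IRF1 stood at 10.9 ± 1.37, 75.7 ± 4.02, 10.5 ± 0.18 and 72.2 ± 5.69 CPM in the same order, high in the 2 groups under ATRA alone or combined and near the non-treated level under CDK4/6i. CREBBP rose from 60.8 ± 2.40 to 132 ± 9.74 CPM and NFKB1 from 117 ± 3.75 to 223 ± 4.23 CPM under CDK4/6i+ATRA. HOXA9 and HOXA10 had no counts, and IRF8 had at most 3 counts in any library.

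The oxidase consumes NADPH, and all 11 genes listed for NADPH supply were tested, with 7 higher and 4 lower under CDK4/6i+ATRA (6 and 5 with scaling by library size alone, where TKT turned), beside 41% higher and 40.7% lower among all tested genes. PGD, a dehydrogenase of the pentose phosphate pathway, went from 712 ± 33.5 to 4044 ± 151 CPM under CDK4/6i+ATRA (SD, n = 3). The malic enzyme gene ME1 was at 31.2 ± 1.57 CPM in non-treated cells, 31.2 ± 2.50 under ATRA, 49.3 ± 1.34 under CDK4/6i and 156 ± 10.2 under CDK4/6i+ATRA. H6PD, the dehydrogenase of the endoplasmic reticulum, was highest under ATRA alone, at 50.8 ± 2.12 CPM.

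Of 16 genes for disposal of superoxide and peroxide, 15 were tested, and 5 were higher and 10 lower under CDK4/6i+ATRA, beside 41% and 40.7% of all tested genes. Besides MPO, catalase (CAT) fell from 593 ± 20.4 CPM in non-treated cells to 326 ± 14.7 under ATRA and 166 ± 6.02 under CDK4/6i+ATRA, and stood at 817.5 ± 16.5 under CDK4/6i (SD, n = 3). TXNRD1 rose from 320 ± 24.7 to 948 ± 18.3 CPM and PRDX5 from 122 ± 3.29 to 352 ± 23.2 CPM under CDK4/6i+ATRA. Of 13 receptors that trigger or prime the oxidase, 11 were tested, with 10 higher and 1 lower under CDK4/6i+ATRA, against the same shares. FPR1, the formyl peptide receptor, was at 0.84 ± 0.090 CPM in non-treated cells and 65.4 ± 5.17 CPM under CDK4/6i+ATRA, and the complement receptor C5AR1 was at 0.91 ± 0.40 and 52.1 ± 4.66 CPM. The integrin pair ITGAM and ITGB2 went from 9.24 ± 0.95 to 589.5 ± 13.4 CPM and from 130 ± 3.96 to 1659 ± 41.5 CPM.

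**Figure D5:**
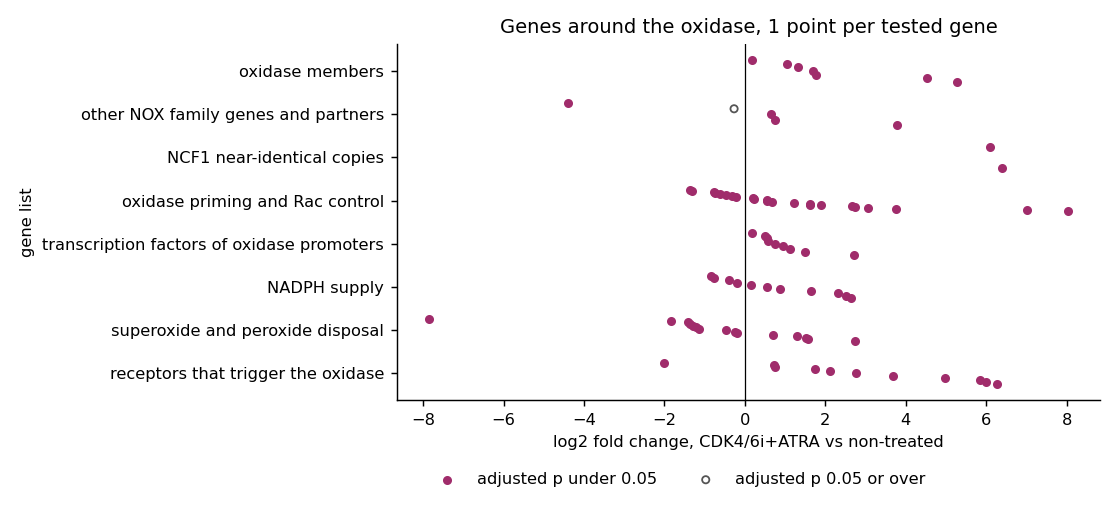
Log2 fold changes under CDK4/6i+ATRA against non-treated cells (horizontal axis) for every tested gene of the 8 lists, with 1 point per gene and open points for genes that did not pass the test. All oxidase members, transcription factors and NCF1 copies lay above 0, while the disposal list had 5 genes above and 10 below it; with scaling by library size alone RAC1, ELF1, TKT, PRKCD and ARHGDIB moved from above 0 to below it.

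Markers of other lineages were read in the same libraries. The eosinophil granule gene PRG2 fell with the drugs that raised the oxidase most, and the summed level of the 2 eosinophil markers was 5877, 5996 and 5736 CPM in non-treated libraries, 262, 298 and 301 under ATRA, 7104, 7245 and 7316 under CDK4/6i and 61.9, 61.4 and 71.8 under CDK4/6i+ATRA. The 4 erythroid, 3 epithelial and 3 fibroblast markers had at most 4 counts in any library. The megakaryocyte list was led by ITGA2B, with a sum between 1.62 and 10.2 CPM. ITGA2B stood at 2.01 ± 0.60 CPM in non-treated cells, 3.135 ± 0.29 under ATRA, 7.63 ± 0.90 under CDK4/6i and 8.93 ± 0.96 under CDK4/6i+ATRA (SD, n = 3). It was higher at an adjusted p under 0.05 in each drug group against non-treated cells. The T cell list was led by CD3E, with a sum between 0.55 and 3.06 CPM, and the B cell list by CD79A, with a sum between 12.6 and 24.97 CPM. In mean level CD3E went from 2.07 CPM in non-treated cells to 0.81 under CDK4/6i+ATRA, and CD79A from 16.7 to 14.2 CPM, while both stood higher under each single drug. The difference of CD3E under ATRA did not pass the test. The CD79A decrease no longer passed under several other settings, among them DESeq2 size factors (edgeR adjusted p = 0.06) and without CDK4/6i+ATRA replicate 1 (edgeR adjusted p = 0.265). The part of any of these levels in the oxidase results was not tested.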

How the data were processed

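RNA from 12 HL60 samples was sequenced, and the authors deposited whole-number counts per gene for each library, not normalized. Per the submitters' processing notes and the study's methods, reads were trimmed with Trimmomatic 0.33 and aligned with STAR 2.7.11a to GRCh38; the methods name RSEM for counting, whereas the layout of the table, with exon intervals and lengths, is that of featureCounts. Groups were taken from the labels. Genes were filtered with edgeR 4.0.16 (filterByExpr), which left 13318 of 59251 genes (31154 had no count), scaled by TMM and tested with the quasi-likelihood test in 1 fit over the 4 groups with 8 residual degrees of freedom, for 5 comparisons and the interaction term; p-values were adjusted by Benjamini-Hochberg over all tested genes and called at 0.05. The common biological coefficient of variation was 3.7%. RPKM used exonic bases on the primary chromosomes. Ratios were tested by two-sided exact permutation in SciPy 1.17.1.

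The members and lists were chosen with earlier results of these data known. Named genes were the 7 members, NCF1B, NCF1C, up to 4 tested genes per list with at least 5 CPM and the largest change in CDK4/6i+ATRA against non-treated, and the 3 genes most like each member (log2 of CPM plus 0.5); further list genes named were chosen after their values were seen, and some genes that these rules pick are not reported here. Alternatives were other scaling (DESeq2 1.42.0 size factors, library size), filters, the DESeq2 test, a replicate block, fits of the compared groups alone, each library left out and summed NCF1 copies. The fits were tested on simulated data.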

Additional observations from a re-analysis of the deposited data

Results flagged for a closer look

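For 6 of the 7 genes the fold effect of ATRA differed with and without CDK4/6i, as the interaction term measured it. The term was -1.23 for CYBB, -1.53 for NCF1, -0.51 for NCF4 and -0.35 for HVCN1, where ATRA had the smaller fold effect in the presence of CDK4/6i. It was 0.50 for CYBA and 0.47 for RAC1, where ATRA had the larger fold effect. All are log2 values from edgeR's quasi-likelihood test, and 51.4% of all tested genes passed the same test, so a term past the threshold is common in these data. With scaling by library size alone, the interaction term was 0.19 for CYBA, 0.15 for RAC1, -0.83 for NCF4, -0.67 for HVCN1 and -0.30 for RAC2, which then passed as well, so that 7 of the 7 did, and 10.3% of all tested genes were higher and 45.5% lower. What lies behind these differences was not tested.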

How the results depend on the processing

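Of 797 values of the members' log2 changes recomputed under other settings, 781 kept their direction and their side of the threshold, 10 reversed, 4 came to pass the test in the same direction and 2 no longer passed it. Of the 10 reversed values, 2 also came to pass the test (NCF4 against ATRA and the RAC2 interaction, both with library size alone) and 1 no longer passed it (NCF1 against ATRA with the copies summed). All are small changes; the cause was not tested, beyond the shift of all genes by library size given with the results. With library size alone the values were -0.091 for RAC1 with CDK4/6i+ATRA against non-treated (edgeR adjusted p = 0.022), -0.38 for RAC1 and -0.21 for NCF4 against ATRA, 0.076 for HVCN1 against CDK4/6i and -0.30 for the RAC2 interaction. Without the filter they were 0.065 for RAC1 against non-treated (edgeR adjusted p = 0.30), -0.17 for RAC1 and -0.0005122 for NCF4 against ATRA and -0.070 for the RAC2 interaction. With DESeq2 size factors they were -0.089 for RAC1 against ATRA (edgeR adjusted p = 0.048) and -0.0061 for the RAC2 interaction, which was also -0.0061 by the DESeq2 test. With only the compared groups in the fit, RAC1 was -0.14 against ATRA. With NCF1, NCF1B and NCF1C summed, NCF1 was 0.033 against ATRA. Outside the members, the CDK4/6i+ATRA change of NCF1C against ATRA was -0.17 with library size alone, 0.038 without the filter (edgeR adjusted p = 0.60) and 0.063 with only the compared groups in the fit (edgeR adjusted p = 0.22), and that of NCF1B was -0.0056 with library size alone. Leaving out each library in turn gave -0.014 to 0.044 for the RAC2 interaction, below 0 without ATRA replicate 2 or CDK4/6i+ATRA replicate 3.

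Replicate numbers recur across the groups, but same-numbered libraries did not deviate together (r between -0.070 and 0.033). With the replicate number as a block, 8915 genes were called with ATRA against 9006 without it, and no call of a member changed.

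With the deposited length of NCF4, 4532 bases including the other contig, an alternative chosen after seeing the data, its levels were 6.71, 13.0, 10.2 and 13.9 RPKM in non-treated, ATRA, CDK4/6i and CDK4/6i+ATRA cells. A floor of 3 counts was at most 0.245 CPM. Splitting of reads among NCF1 and its copies, reads of NCF4 shared with another contig, antisense overlaps and 3 libraries per group at 1 time and 1 dose limit what can be read from these values.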
